A study of Homo sapiens with 59 samples.

Results

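Genes of the hepatic acute phase response were followed in HepG2 cells treated with herbal extracts: HP, CRP, SAA1, SAA2, SAA4, ORM1, ORM2, LBP, SOCS3 and IL6R. They were chosen by symbol for their place in that response, and all 10 were found among the 60675 genes of the table. Of these, 6 (HP, SAA4, ORM1, ORM2, SOCS3 and IL6R) had enough counts for the test across genes, which covered 16641 genes. CRP, SAA1, SAA2 and LBP did not. HepG2 is an established human hepatocellular carcinoma line that secretes many plasma proteins. RNA was sequenced from 59 libraries in 20 groups, each harvested after 24 h. Water extracts of 6 herbal medicines were given at 3 doses each. Zingiberis Rhizoma Recens (fresh ginger rhizome), Zingiberis Rhizoma (dried ginger), Scutellariae Radix, Pinelliae Tuber and Zizyphi Fructus were given at 20, 100 and 500 ug/mL. Coptidis Rhizoma was given at 8.4, 42 and 210 ug/mL; the series text says that an extract whose IC20 lay below 500 ug/mL was given at its IC20 and at 5-fold dilutions of it. The positive control was 10 uM wortmannin, an inhibitor of phosphoinositide 3-kinase. The common vehicle group was DMSO, at 0.1% in the sample labels and 2% in the text of the series. The sample labels give no DMSO content for the extract and wortmannin groups, so a difference in DMSO and the effect of an extract cannot be told apart. Each group held 3 libraries except Pinelliae Tuber at 20 ug/mL, which held 2. Nothing in the labels says that these were separate cultures, so p-values measure the spread between libraries, which may be technical.

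In the acute phase response, interleukin-6 binds its receptor IL6R together with gp130, and the kinases on gp130 phosphorylate STAT3. STAT3, with C/EBP factors and, downstream of interleukin-1, NF-kappaB, raises transcription of secreted liver proteins. STAT3 also induces SOCS3, which binds gp130 and shuts the signal off. The secreted proteins bind haemoglobin (haptoglobin, from HP), bacterial and cell surfaces (C-reactive protein), lipopolysaccharide (LBP), lipoproteins (serum amyloid A) and small basic molecules (orosomucoid, from ORM1 and ORM2). SAA1 and SAA2 are strongly induced by cytokines, whereas SAA4 is the constitutive serum amyloid A of the liver.

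Libraries held 21582593 to 31392071 counts (median 25834177) over 21107 to 22739 genes with at least 1 count. The hepatocyte markers were abundant in every library; ALB alone had 6321 to 12677 CPM (counts scaled to the size of the library). Of markers for other liver cells, PTPRC did not exceed 0.0364 CPM and CD163 did not exceed 0.0809 CPM in any library, and S100A8 was 0 in all. Others were present in every library, with CD68 at 25.2 to 86.5 CPM, ACTA2 at 30.8 to 85.1 CPM, PDGFRB at 2.98 to 20.7 CPM, PECAM1 at 1.86 to 4.50 CPM and CD14 at 0.849 to 3.498 CPM. Every sample title, that of vehicle included, carries the label BatchA and a code. The first number of the code has no stated meaning, nor has the letter described below. Wortmannin and vehicle carry 1, the gingers 2, Scutellariae and Pinelliae 3, Zizyphi and Coptidis 4. In the code of vehicle alone the letter A stands before this number, so all comparisons with vehicle, that of wortmannin included, cross the letter. Comparisons of an extract with vehicle also cross the number, whereas comparisons between doses of an extract, and between the gingers, cross neither. Replicate 1 of dried ginger at 500 ug/mL, replicate 3 of Pinelliae at 100 ug/mL and replicate 1 of Zizyphi at 20 ug/mL stood apart from the other libraries of their groups in earlier work on these data. All 19 comparisons with vehicle share the same 3 vehicle libraries.

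CRP, SAA1, SAA2 and LBP were at or near 0 throughout. CRP (ENSG00000132693, chromosome 1, 159712289 to 159714589, minus strand, GRCh38), the classical clinical acute phase protein, had 0 counts in all 59 libraries. SAA1 (ENSG00000173432, chromosome 11, 18266174 to 18269977, plus strand) had 5 counts in all and never more than 1 in a library. SAA2 (ENSG00000134339, chromosome 11, 18239223 to 18248643, minus strand) had 18 counts in all, in 13 libraries, with at most 3 in one. LBP (ENSG00000129988, chromosome 20, 38346356 to 38377023, plus strand), whose protein hands lipopolysaccharide to CD14, had 43 counts in 32 libraries, again with at most 3 in one. A count of 0 in a single library allows up to 3 counts, which is 0.0940 to 0.135 CPM depending on the library, for counting error only. SAA1, SAA2 and LBP were thus counted, but never above the 3 counts that a count of 0 allows, and none of the 4 genes had enough counts for a change to be tested.

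The other 6 genes were measured in all 59 libraries and differed widely in level. Per kilobase of exon, ORM1 averaged 271 ± 8.57 CPM and ORM2 214 ± 4.09 CPM in vehicle cells (SD, n = 3, as for every mean below unless stated). HP averaged 105 ± 2.83 and SAA4 104 ± 5.70 CPM per kilobase. IL6R averaged 5.43 ± 0.376 and SOCS3 0.119 ± 0.0115 CPM per kilobase, so the receptor and the feedback inhibitor lay far below the secreted proteins. The group means of SOCS3 spanned 12.1-fold over the 20 groups, those of HP 8.35-fold, IL6R 5.15-fold and SAA4 2.44-fold. ORM1 and ORM2 spanned 1.42-fold and 1.41-fold. All values below are CPM without division by length and compare groups within a gene.

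**Figure D1:**
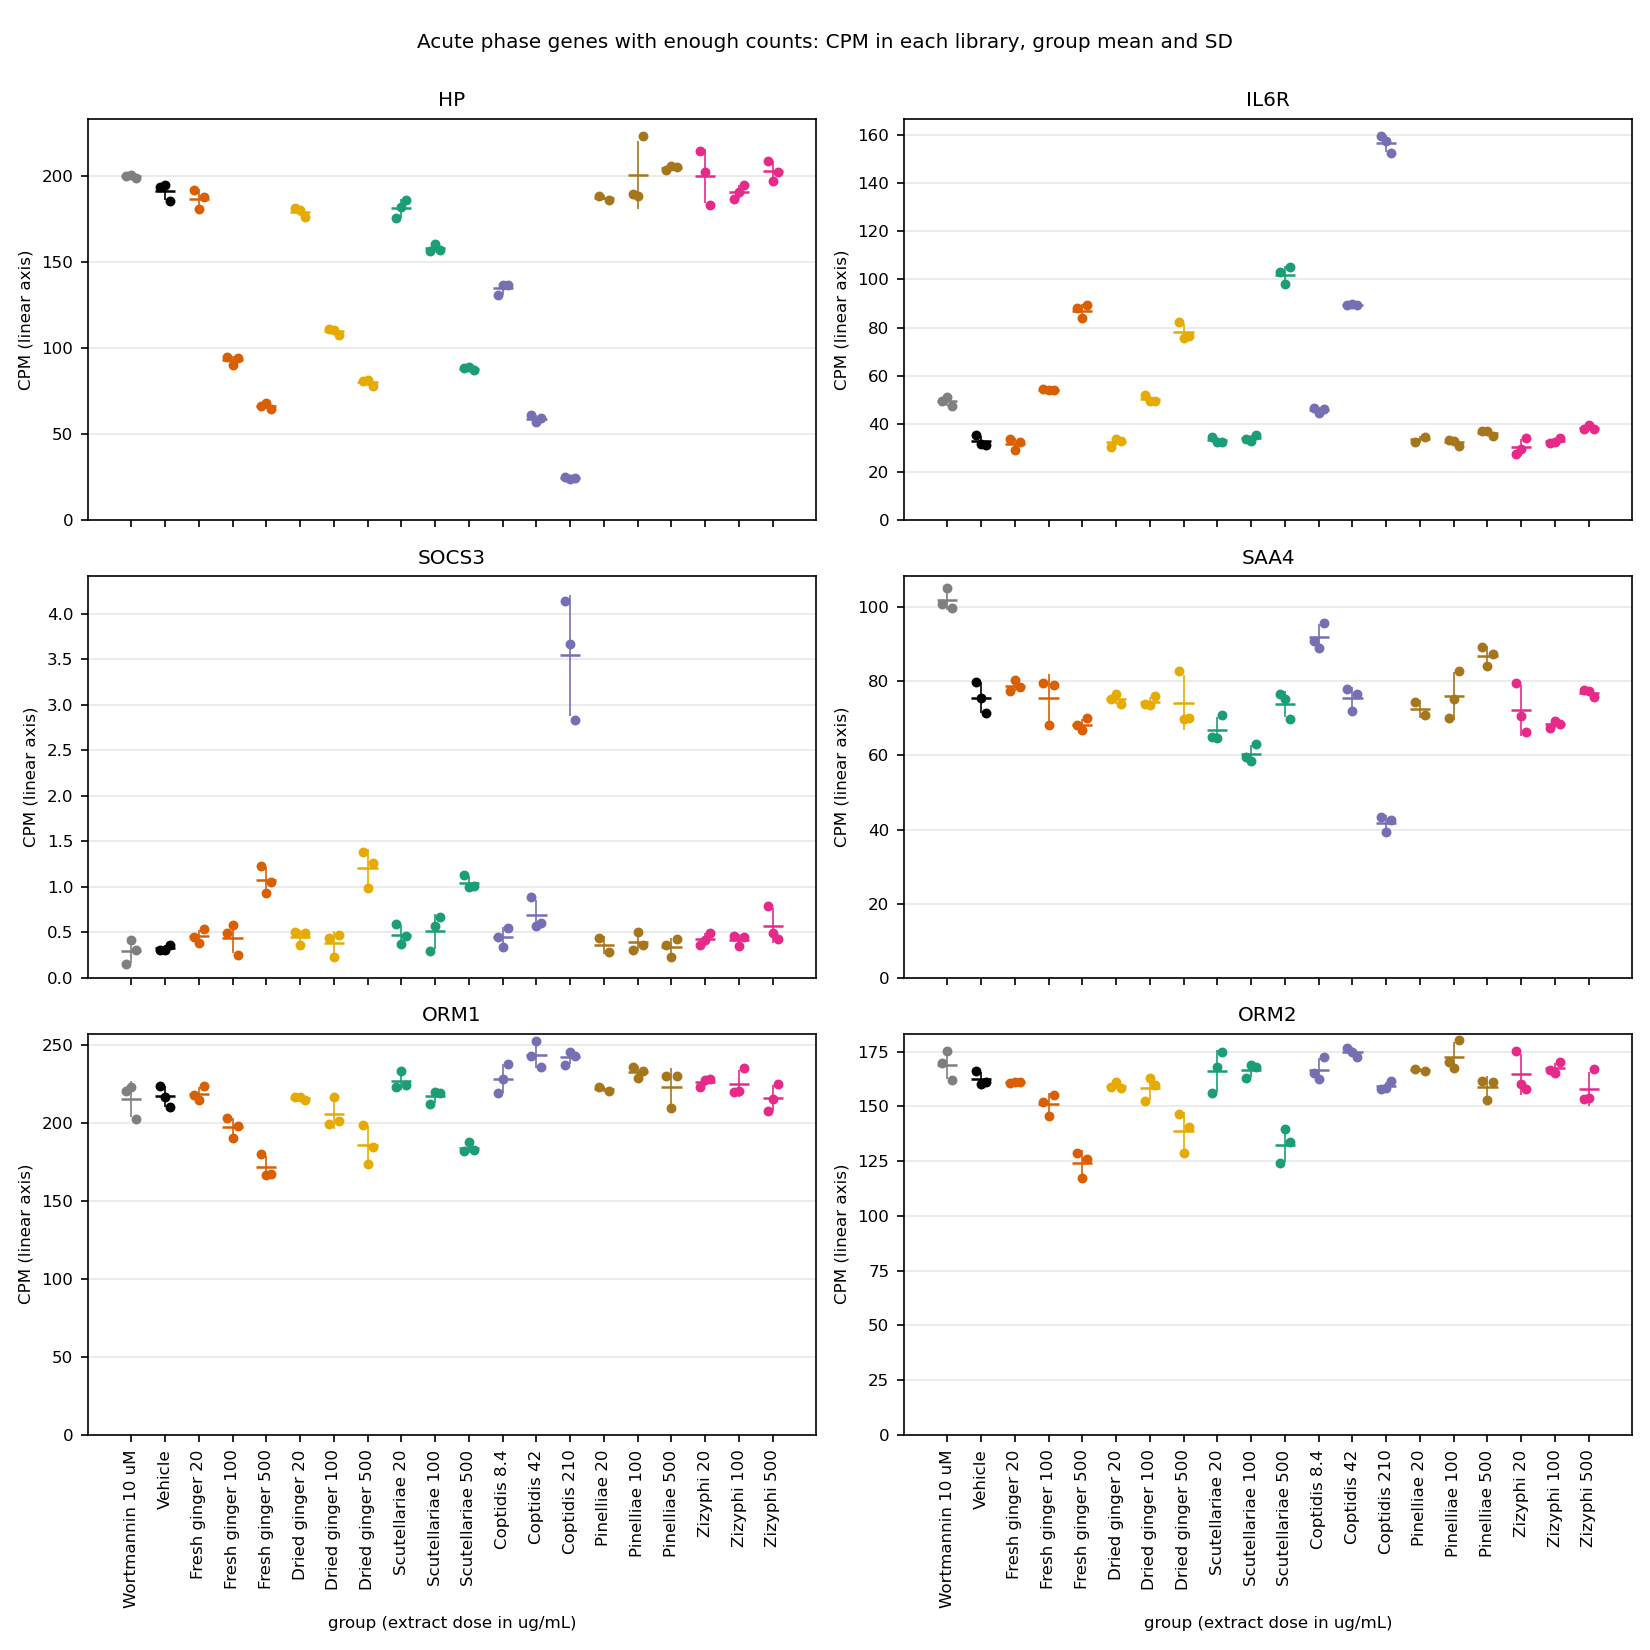
CPM of HP, IL6R, SOCS3, SAA4, ORM1 and ORM2 on linear axes, with a point for each of the 59 libraries, a bar for the group mean and a line for 1 SD; wortmannin stands left of vehicle and each extract runs from its lowest to its highest dose. HP falls with dose for both gingers, Scutellariae and Coptidis, IL6R rises with dose for both gingers and Coptidis and with Scutellariae stands above vehicle at 500 ug/mL only, SOCS3 is highest at Coptidis 210 ug/mL (2.83 to 4.14 CPM), and ORM1 and ORM2 stay within a 1.42-fold range of group means.

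Upstream sequence is shown for the 4 tested genes that the RefSeq promoter table holds (GRCh38.p14), because C/EBP letters differ between them. Of the 10 genes, 5 matched the table; HP, SAA1, SAA2, ORM2 and LBP are named only. The stretches below are the part of the 250 bases before the RefSeq start that lies outside every annotated exon, written 5′ to 3′ on the strand of the gene. Capitals mark TTNNGNAA, the C/EBP letters, found on either strand. They cover chr11:18236894-18237052 (minus strand), chr9:114322848-114323055 (plus strand), chr17:78360926-78361175 (minus strand) and chr1:154405093-154405192 (plus strand).
SAA4: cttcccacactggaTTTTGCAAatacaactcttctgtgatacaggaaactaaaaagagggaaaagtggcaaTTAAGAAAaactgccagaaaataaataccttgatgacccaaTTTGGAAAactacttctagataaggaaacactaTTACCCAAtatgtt
ORM1: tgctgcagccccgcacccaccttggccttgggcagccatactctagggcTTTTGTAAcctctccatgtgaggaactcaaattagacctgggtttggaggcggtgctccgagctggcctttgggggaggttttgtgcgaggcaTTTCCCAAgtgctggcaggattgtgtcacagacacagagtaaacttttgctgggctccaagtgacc
SOCS3: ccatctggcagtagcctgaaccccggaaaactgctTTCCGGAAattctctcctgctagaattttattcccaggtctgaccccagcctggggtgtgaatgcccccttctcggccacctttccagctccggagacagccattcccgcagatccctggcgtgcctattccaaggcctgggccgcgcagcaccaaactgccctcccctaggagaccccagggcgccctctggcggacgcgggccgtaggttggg
IL6R: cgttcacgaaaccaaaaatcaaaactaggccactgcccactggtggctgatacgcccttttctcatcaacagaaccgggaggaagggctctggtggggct
In the full window of 250 bases, SAA4 had 6 matches, ORM1 had 2, and IL6R and SOCS3 had 1 each. RefSeq gives SOCS3 a second window, chr17:78359668-78359917 (minus strand), which held none. At least 1 match was present in 33.2% of all 35116 windows of that length, and 6 or more in 18 of them (0.0513%). No window of these genes held the STAT letters TTCNNNGAA (6.57% of all windows), the NF-kappaB letters (5.07%) or the HNF1 letters (0.0057%) on either strand. The SOCS3 stretch lies upstream of a RefSeq start that is itself upstream of the GENCODE gene, and the second SOCS3 window lies within that gene. The bases directly before the GENCODE start of SOCS3 were therefore not searched for any of these letters.

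IL6R (ENSG00000160712, chromosome 1, 154405193 to 154469450, plus strand) encodes the ligand-binding chain of the interleukin-6 receptor, and it was higher in every comparison in which it passed the test. It rose in 10 of the 19 comparisons with vehicle and fell in none. With Coptidis at 210 ug/mL, IL6R had 159, 157 and 152 CPM in the 3 libraries, against 35.3, 31.6 and 31.2 CPM in vehicle cells. Every treated library lay far above every vehicle library. The means were 156 ± 3.51 CPM with Coptidis and 32.7 ± 2.26 CPM with vehicle, a 4.78-fold difference (log2 2.26, SE 0.051, adjusted p = 3.51e-38 by edgeR's quasi-likelihood test). In bulk RNA, a change in the number of cells that express a gene and a change in RNA per cell cannot be told apart.

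IL6R was graded with dose for 3 of the extracts. With Coptidis it had 46.6, 44.7 and 46.3 CPM at 8.4 ug/mL and 89.2, 89.6 and 89.4 CPM at 42 ug/mL, so no 2 doses overlapped. Each step was called: 0.96 on the log2 scale for 42 over 8.4 ug/mL (adjusted p = 1.28e-21) and 0.81 for 210 over 42 ug/mL (adjusted p = 8.72e-21). Fresh ginger gave 33.8, 29.005 and 32.6 CPM at 20 ug/mL, 54.4, 54.2 and 53.9 CPM at 100 ug/mL, and 88.0, 83.8 and 89.2 CPM at 500 ug/mL. The lowest dose overlapped vehicle, and the higher doses did not (0.73 at 100 ug/mL and 1.41 at 500 ug/mL; adjusted p = 9.18e-16 and 3.63e-28). Dried ginger gave 30.6, 33.8 and 33.1 CPM at 20 ug/mL, 51.8, 49.7 and 49.5 CPM at 100 ug/mL, and 82.1, 75.8 and 76.4 CPM at 500 ug/mL. Its order was that of fresh ginger, with changes of 0.62 and 1.25 at the higher doses (adjusted p = 3.46e-13 and 6.25e-26).

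Scutellariae moved IL6R between its upper doses. It had 34.7, 32.6 and 32.4 CPM at 20 ug/mL and 33.6, 32.8 and 35.6 CPM at 100 ug/mL, both overlapping vehicle. At 500 ug/mL it had 103, 97.9 and 105 CPM, the second highest group of the 20. The change over vehicle was 1.64 (adjusted p = 3.96e-31), and that over 100 ug/mL was 1.58 (adjusted p = 1.64e-30). Wortmannin gave 49.5, 51.2 and 47.4 CPM, above all vehicle libraries (log2 0.59, adjusted p = 1.01e-12). Zizyphi at 500 ug/mL gave 38.1, 39.6 and 37.8 CPM, also without overlap (0.23, adjusted p = 0.0085). That small rise missed the threshold when vehicle replicate 2, vehicle replicate 3 or Zizyphi replicate 2 was left out (0.20 to 0.21, adjusted p = 0.057 to 0.0896). Over 20 ug/mL of the same extract the rise was 0.34 (adjusted p = 7.32e-05, or 0.398 with only those groups in the fit). With Pinelliae, IL6R at 500 ug/mL was 0.15 over vehicle (95% interval 0.04 to 0.26, adjusted p = 0.12).

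SOCS3 (ENSG00000184557, chromosome 17, 78356778 to 78360077, minus strand), the feedback inhibitor of gp130 and JAK signalling, was scarce in vehicle cells and rose in 5 of the 19 comparisons with vehicle. With Coptidis at 210 ug/mL the libraries held 110, 93 and 70 counts, against 8, 8 and 9 counts in vehicle cells, so the vehicle level carries a large counting error. Scaled to depth these were 4.14, 3.66 and 2.83 CPM, against 0.308, 0.304 and 0.360 CPM in vehicle cells. The highest library of any other group had 1.38 CPM. The means were 3.55 ± 0.664 CPM with Coptidis and 0.324 ± 0.0315 CPM with vehicle, a 10.8-fold difference (log2 3.44, SE 0.258, 95% interval 2.92 to 3.95, adjusted p = 7.63e-17 by edgeR).

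At lower doses of Coptidis the differences were smaller. At 42 ug/mL it had 0.884, 0.564 and 0.604 CPM, above all vehicle libraries (1.07, SE 0.324, adjusted p = 0.00516). That call was lost without replicate 1 of that group (0.85, adjusted p = 0.0643). At 8.4 ug/mL it had 0.447, 0.336 and 0.550 CPM and overlapped vehicle (0.46, adjusted p = 0.455). The step to 210 from 42 ug/mL was 2.36 on the log2 scale.

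The top doses of 3 other extracts also raised SOCS3, to about 1 CPM. Fresh ginger at 500 ug/mL gave 1.22, 0.929 and 1.05 CPM (1.71, adjusted p = 5.22e-06). Dried ginger at 500 ug/mL gave 1.38, 0.982 and 1.25 CPM (1.88, adjusted p = 5.81e-07). Scutellariae at 500 ug/mL gave 1.13, 0.991 and 1.01 CPM (1.67, adjusted p = 6.1e-06). Each of these 9 libraries was above all vehicle libraries, and SOCS3 did not pass the test at 100 or 20 ug/mL of the same extracts. Against its own lowest dose SOCS3 was higher by 1.23 with fresh ginger, 1.42 with dried ginger, 1.13 with Scutellariae and 2.97 with Coptidis. Zizyphi at 500 ug/mL gave 0.789, 0.492 and 0.430 CPM, above vehicle in every library but not called (0.82, 95% interval 0.16 to 1.47, adjusted p = 0.164). Wortmannin gave 0.154, 0.418 and 0.307 CPM on both sides of vehicle (-0.15, 95% interval -0.92 to 0.61).

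**Figure D2:**
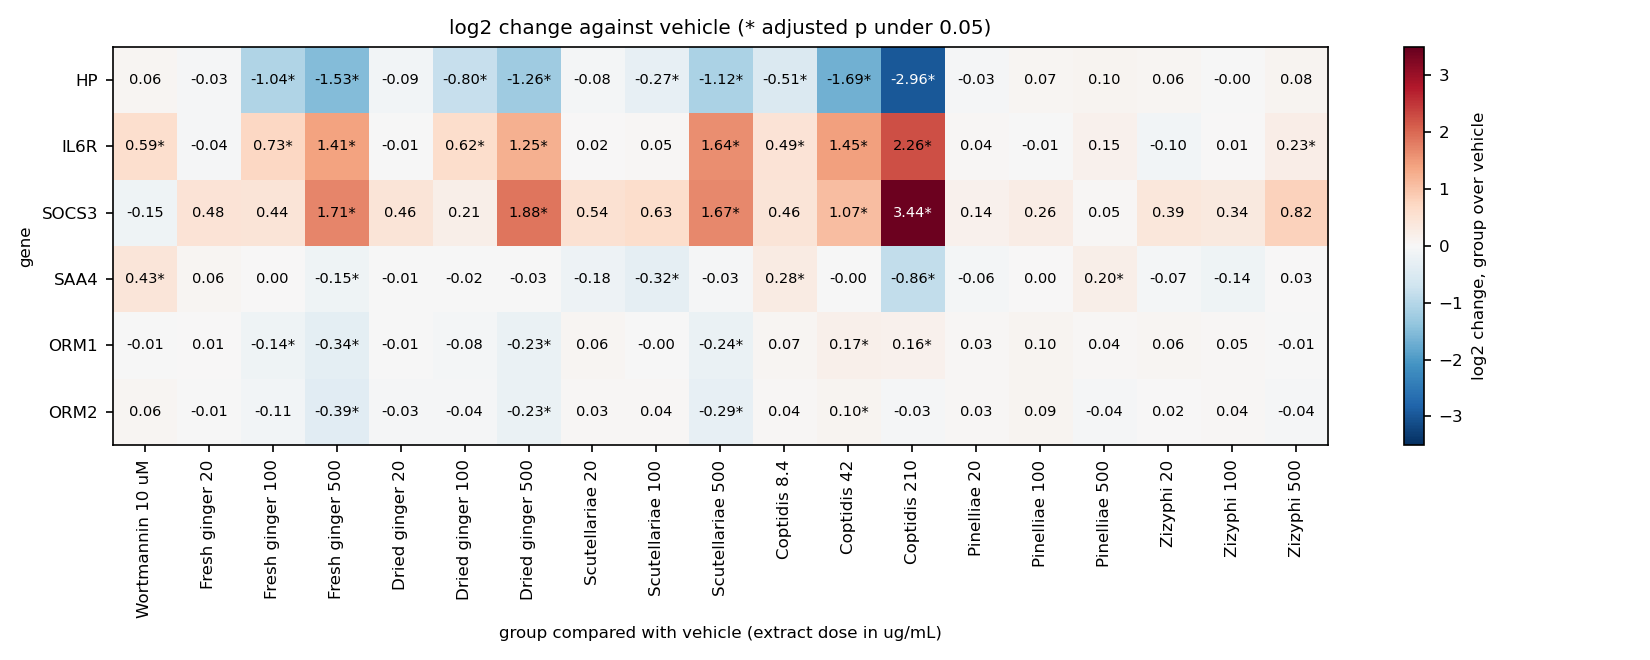
Log2 change of the 6 tested genes (rows) in each of 19 groups against vehicle (columns), with blue lower and red higher, and an asterisk at an adjusted p under 0.05. HP and IL6R carry opposite signs at the middle and top doses of both gingers, at the top dose of Scutellariae and at all doses of Coptidis, from -2.96 for HP to 2.26 for IL6R at Coptidis 210 ug/mL.

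HP (ENSG00000257017, chromosome 16, 72054592 to 72061055, plus strand) encodes haptoglobin, which captures free haemoglobin for clearance. It fell in 9 of the 19 comparisons with vehicle and rose in none. With Coptidis at 210 ug/mL, HP had 24.9, 24.1 and 24.7 CPM, against 194, 195 and 186 CPM in vehicle cells. The 2 groups were far apart, and the Coptidis libraries were within 1 CPM of each other. The means were 24.6 ± 0.422 CPM with Coptidis and 191 ± 5.18 CPM with vehicle, 0.128 of the vehicle level (log2 -2.96, SE 0.049, adjusted p = 7.01e-44 by edgeR). Coptidis at 8.4 ug/mL gave 131, 137 and 137 CPM and at 42 ug/mL 61.2, 56.9 and 59.3 CPM. Even the lowest dose lay below every vehicle library, with changes over vehicle of -0.51 and -1.69 (adjusted p = 2.44e-13 and 3.99e-34). The steps between doses were -1.19 and -1.27 on the log2 scale.

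Both gingers lowered HP at the middle and top doses. Fresh ginger gave 192, 181 and 188 CPM at 20 ug/mL, 94.8, 90.2 and 94.3 CPM at 100 ug/mL, and 66.3, 68.4 and 64.6 CPM at 500 ug/mL. Dried ginger gave 181, 180.2 and 176 CPM at 20 ug/mL, 111, 111 and 107 CPM at 100 ug/mL, and 81.1, 81.5 and 78.01 CPM at 500 ug/mL. The higher doses did not overlap vehicle for either extract. Dried ginger at 20 ug/mL also lay below every vehicle library but was not called, and fresh ginger at 20 ug/mL overlapped vehicle. The changes over vehicle were -1.04 and -1.53 for fresh ginger (adjusted p = 2.91e-25 and 2e-32) and -0.80 and -1.26 for dried ginger (adjusted p = 9.68e-21 and 4.53e-29). The larger step for both was between 20 and 100 ug/mL, at -1.01 for fresh and -0.71 for dried ginger, against -0.49 and -0.45 for the next. The difference between those steps was not tested.

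Scutellariae lowered HP in a different order of doses. It gave 175, 182 and 186 CPM at 20 ug/mL, 157, 161 and 157 CPM at 100 ug/mL, and 88.6, 88.8 and 87.2 CPM at 500 ug/mL. Doses did not overlap each other. The step to 100 from 20 ug/mL was -0.20 and that to 500 from 100 ug/mL was -0.84 (adjusted p = 0.00318 and 2.04e-22). At 100 ug/mL HP was thus lower than in vehicle cells (-0.27, adjusted p = 1.74e-06) while IL6R was not called.

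HP did not pass the test with wortmannin, Pinelliae or Zizyphi. Wortmannin gave 200.2, 201 and 199 CPM (0.06, 95% interval -0.02 to 0.15, adjusted p = 0.254). Pinelliae at 500 ug/mL gave 204, 206 and 205 CPM, above every vehicle library (0.10, 95% interval 0.02 to 0.18, adjusted p = 0.174). Without the 3 libraries that stood apart, this difference was called (0.09, adjusted p = 0.0356). Pinelliae at 100 ug/mL gave 189.7, 189 and 223 CPM, the last in the library that stood apart. Zizyphi at 500 ug/mL gave 209, 197 and 203 CPM (0.08, 95% interval 0.00 to 0.17, adjusted p = 0.291). Zizyphi at 20 ug/mL gave 215, 202 and 183 CPM, with the highest value in the library that stood apart.

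HPR, the haptoglobin-related gene that lies 2.1 kb from HP on the same strand, shares sequence with it: 10.6% of the 100-base windows of HP transcripts occur in HPR, and 20.6% the other way. The authors' counting could therefore move reads between them. HPR made up 6.96% ± 1.07 of the counts of the pair with Coptidis at 210 ug/mL, 15.8% ± 0.157 with wortmannin and 11.9% ± 0.483 with vehicle. Its own changes over vehicle were -3.81 with Coptidis at 210 ug/mL and 0.54 with wortmannin. With the counts of the pair summed, the change of HP kept its sign and call with each of the 4 extracts that lowered it. The same sum brought wortmannin past the threshold (0.13, adjusted p = 0.0103).

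SAA4 (ENSG00000148965, chromosome 11, 18231349 to 18236893, minus strand), the constitutive serum amyloid A carried on lipoproteins, moved in both directions: it was higher in 3 and lower in 3 of the 19 comparisons with vehicle. Coptidis gave 91.0, 89.1 and 95.9 CPM at 8.4 ug/mL, 77.9, 71.9 and 76.5 CPM at 42 ug/mL, and 43.3, 39.4 and 42.6 CPM at 210 ug/mL, against 79.8, 75.6 and 71.5 CPM in vehicle cells (mean 75.6 ± 4.14). The lowest dose lay above vehicle, the middle dose overlapped it and the highest lay below it. The changes were 0.28 (adjusted p = 0.000247), -0.00 (95% interval -0.12 to 0.11) and -0.86 (adjusted p = 1.1e-17). From dose to dose, SAA4 fell by 0.29 and by 0.85 on the log2 scale.

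Wortmannin gave the highest SAA4 of all groups, with 101, 105 and 99.9 CPM (mean 102 ± 2.78). It was above every vehicle library (0.43, adjusted p = 2.79e-08). Scutellariae at 100 ug/mL gave 59.5, 58.5 and 63.2 CPM, below vehicle (-0.32, adjusted p = 4.5e-05). At 500 ug/mL the same extract gave 76.5, 75.3 and 70.0 CPM, overlapping vehicle (-0.03), and 0.29 higher on the log2 scale than at 100 ug/mL. At 20 ug/mL it gave 64.9, 64.8 and 70.9 CPM (-0.18, adjusted p = 0.0685). That value passed the threshold with DESeq2 (adjusted p = 0.0493), and also when Scutellariae replicate 3 or vehicle replicate 3 was left out (adjusted p = 0.0342 and 0.0428).

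The remaining SAA4 calls over vehicle lay near the threshold, and each was lost when any 1 of several libraries was left out. Pinelliae at 500 ug/mL gave 89.4, 84.2 and 87.3 CPM, above vehicle (0.20, adjusted p = 0.0304). The call was lost without Pinelliae replicate 1 or 3 or vehicle replicate 2 or 3 (adjusted p = 0.113 to 0.153). Fresh ginger at 500 ug/mL gave 68.2, 66.8 and 70.0 CPM (-0.15, adjusted p = 0.0376). Here leaving out vehicle replicate 1 or 2, or ginger replicate 1 or 2, ended the call (adjusted p = 0.0553 to 0.159). SAA4 shares none of its 100-base windows with SAA1 or SAA2, which lie in the same cluster, and 60.5% of them with the annotated readthrough transcript of SAA2 and SAA4. Counts of SAA4 and the readthrough were not summed, so the split of reads between them is uncertain.

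ORM1 (ENSG00000229314, chromosome 9, 114323056 to 114326475, plus strand) and ORM2 (ENSG00000228278, chromosome 9, 114329869 to 114333252, plus strand) encode the orosomucoids, abundant plasma glycoproteins that carry basic drugs. They are neighbours, 3.4 kb apart, and changed little. Fresh ginger at 500 ug/mL gave 180.2, 167 and 168 CPM of ORM1, against 224, 217 and 210.3 CPM in vehicle cells. It gave 129, 117 and 126 CPM of ORM2, against 166, 160.4 and 161 CPM in vehicle cells. Neither gene overlapped vehicle, and the changes were -0.34 and -0.39 (adjusted p = 1.99e-09 and 2.22e-10). With dried ginger at 500 ug/mL both fell by 0.23 on the log2 scale (adjusted p = 1.44e-05 for ORM1 and 2.43e-05 for ORM2). Scutellariae at 500 ug/mL gave changes of -0.24 and -0.29 (adjusted p = 4.41e-06 and 1.67e-07). ORM1 at 100 ug/mL of fresh ginger was -0.14 (adjusted p = 0.0119), a call lost without vehicle replicate 1 or ginger replicate 2 (adjusted p = 0.062 and 0.065).

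Neither orosomucoid was called lower than vehicle with Coptidis at any of its doses. ORM1 had 243, 253 and 236 CPM at 42 ug/mL and 237, 246 and 243 CPM at 210 ug/mL, all above vehicle (0.17 and 0.16, adjusted p = 0.000692 and 0.000766). ORM2 had 177, 175 and 172 CPM at 42 ug/mL (0.10, adjusted p = 0.0455) and 158, 158 and 162 CPM at 210 ug/mL, where it overlapped vehicle (-0.03, 95% interval -0.12 to 0.06). The ORM2 call at 42 ug/mL was lost without any 1 of vehicle replicates 1 to 3 or of Coptidis replicates 1 and 2 (adjusted p = 0.0517 to 0.134). Of the 100-base windows of ORM1, 33.7% also occur in ORM2, so the split between the genes is uncertain. ORM2 made up 39.7% ± 0.421 of the pair with Coptidis at 210 ug/mL and 42.8% ± 0.474 with vehicle. With their counts summed, the pair at 210 ug/mL was 0.08 over vehicle and not called (adjusted p = 0.0652).

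Set against all genes tested, the share of the 6 genes that passed was read beside the background of each comparison. At the top doses, Coptidis changed 5 of the 6 against 69.4% of all genes, Scutellariae 5 against 50.2%, fresh ginger 6 against 46%, and dried ginger 5 against 42.4%. Wortmannin changed 2 of the 6 against 32.2%, Pinelliae 1 against 4.57% and Zizyphi 1 against 3.61%. At the middle doses, Coptidis changed 5 against 46.9%, fresh ginger 3 against 22.2%, dried ginger 2 against 17.5%, and Scutellariae 2 against 14.6%. At the lowest doses Coptidis changed 3 against 16%, and fresh ginger, dried ginger and Scutellariae changed none, against 5.1%, 0.0841% and 4.74%. None of the 6 was called with Pinelliae at 100 or 20 ug/mL (0.204% and 0.00601% of all genes) or Zizyphi at those doses (0.228% and 1.99%). With backgrounds of 42.4% to 69.4%, a count of 5 or 6 at a top dose says little about these genes as a set. The median change of the 6 was -0.24 for fresh ginger, -0.13 for dried ginger, -0.13 for Scutellariae and 0.06 for Coptidis at the top doses against 0.00 to 0.01 over all genes; HP and IL6R, which moved in opposite directions, are both in it.

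Between top and bottom dose, which share the number in the titles, HP was lower and IL6R and SOCS3 were higher with 4 extracts. HP changed by -1.49 with fresh ginger, -1.16 with dried ginger, -1.04 with Scutellariae and -2.46 with Coptidis, IL6R by 1.45, 1.26, 1.62 and 1.77 in that order, and SOCS3 by 1.23, 1.42, 1.13 and 2.97. The genes called were 6 of 6 with fresh ginger, 5 with dried ginger, 6 with Scutellariae and 4 with Coptidis, against 48.1%, 41%, 49.9% and 65.8% of all genes. With Pinelliae and Zizyphi 1 gene each was called, against 1.9% and 7.22%: SAA4 with Pinelliae (0.26, adjusted p = 0.0153) and IL6R with Zizyphi. The SAA4 call was lost without either library of the lowest dose, or without replicate 1 or 3 of the highest (adjusted p = 0.0608 to 0.296).

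Between neighbouring doses, more of the 6 genes moved at the upper step, and so did a larger share of all genes tested. For 500 over 100 ug/mL, 5 were called with fresh ginger, 5 with dried ginger and 6 with Scutellariae, against 26.5%, 23.7% and 48.5% of all genes. For 100 over 20 ug/mL, 3 were called with fresh ginger, 2 with dried ginger and 1 with Scutellariae, against 24.7%, 16.2% and 2.12%. Coptidis had 3 called for 42 over 8.4 ug/mL and 5 for 210 over 42 ug/mL, against 31.7% and 56.4%. Pinelliae had SAA4 called for 500 over 100 ug/mL (0.20, adjusted p = 0.0377), and Zizyphi had IL6R (0.23, adjusted p = 0.0191), against 3.61% and 1.04% of all genes. Leaving out 1 library ended each of these calls (Pinelliae replicate 1 or 2 at 100 ug/mL or 1 or 3 at 500 ug/mL, and Zizyphi replicate 1 or 2 at either dose). Neither extract had a gene called for 100 over 20 ug/mL (0.00601% and 0.0361% of all genes).

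**Figure D3:**
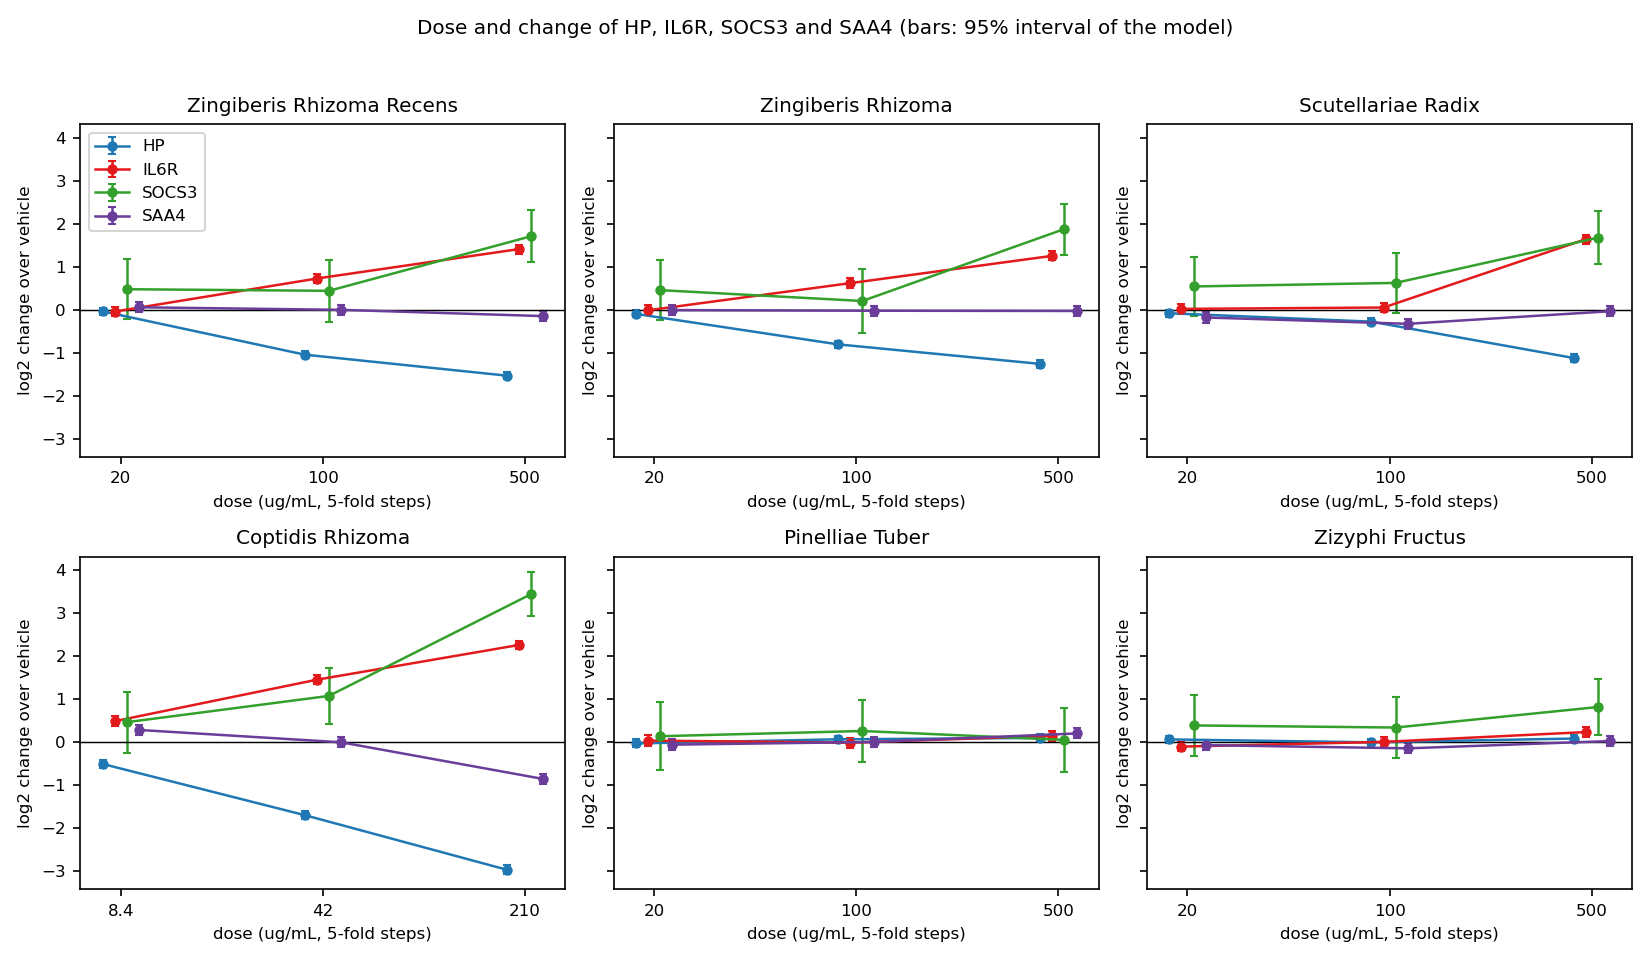
Log2 change over vehicle of HP, IL6R, SOCS3 and SAA4 against dose (ug/mL, in 5-fold steps) for the 6 extracts, with bars for the 95% interval of the model. HP falls at each step of Coptidis (-0.51, -1.69 and -2.96) while SAA4 turns from 0.28 to -0.86. With Pinelliae only SAA4 at 500 ug/mL is called (0.20).

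Fresh and dried ginger were compared at matched doses in 3 comparisons. The sample labels do not say whether both extracts came from the same lot of rhizome. At 500 ug/mL, HP averaged 66.4 ± 1.88 CPM with fresh ginger and 80.2 ± 1.91 CPM with dried ginger, without overlap (-0.27, adjusted p = 0.00015). At 100 ug/mL it averaged 93.1 ± 2.50 CPM with fresh ginger and 109.8 ± 2.03 CPM with dried ginger, again without overlap (-0.24, adjusted p = 0.0015). HP was thus lower with the fresh rhizome at both doses. ORM2 at 500 ug/mL averaged 124 ± 6.01 CPM with fresh ginger and 139 ± 8.95 CPM with dried ginger, but the groups overlapped (-0.16, adjusted p = 0.0477). That call was lost without dried ginger replicate 1, which stood apart (-0.12, adjusted p = 0.336), without dried ginger replicate 3, and without fresh ginger replicate 2 or 3. It was also lost with ORM1 and ORM2 summed (adjusted p = 0.0664) or with only those groups in the fit (adjusted p = 0.412). IL6R at 500 ug/mL was 0.16 higher with fresh ginger (95% interval 0.06 to 0.25, adjusted p = 0.077), and was called without the 3 libraries that stood apart (0.19, adjusted p = 0.0219). SOCS3 differed by -0.17 (95% interval -0.65 to 0.32). At 20 ug/mL none of the 6 genes was called. The genes called were 2, 1 and 0 at 500, 100 and 20 ug/mL, against 1.83%, 0.379% and 0.0481% of all genes.

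Genes of the surrounding pathway were counted in lists chosen with earlier results of these data known, at the top doses and with wortmannin. Positive acute phase proteins are those that the liver secretes more of in inflammation. The list of other genes under this heading also held SAA3P, a pseudogene, and 18 of its genes were tested. Of these, 16 were lower and 1 higher with Coptidis at 210 ug/mL (median -0.77), where 34.5% of all genes tested were lower and 34.8% higher. With Scutellariae 15 were lower and 1 higher, against 25.5% and 24.7% of all genes. With each ginger 12 were lower and 2 higher, against 22.5% and 23.5% of all genes for fresh and 20.9% and 21.5% for dried ginger. The lists below are read beside these shares. FGA, the fibrinogen alpha chain, averaged 99.2 ± 5.23 CPM with Coptidis and 995 ± 30.2 CPM with vehicle (-3.33, adjusted p = 1.34e-49). FGG, the gamma chain, averaged 117 ± 3.17 CPM with Coptidis and 1066 ± 45.4 CPM with vehicle (-3.19). HAMP, which encodes hepcidin, averaged 5.49 ± 0.537 CPM with Scutellariae at 500 ug/mL and 66.0 ± 2.15 CPM with vehicle (-3.59). With wortmannin 13 were higher and 3 lower (median 0.34), against 16.2% and 16% of all genes. Pinelliae had 6 higher and 1 lower, against 2.64% and 1.93% of all genes, and Zizyphi had 5 higher and 1 lower, against 2.09% and 1.53%.

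Of the 9 negative acute phase proteins, which inflammation lowers, 8 were lower and 1 higher with Coptidis, where 34.5% of all genes were lower. With Scutellariae 8 were lower and 0 higher, against 25.5% lower over all genes. With fresh ginger 6 were lower and 2 higher, and with dried ginger 6 were lower and 3 higher. SERPINA6, which encodes the corticosteroid carrier, averaged 22.6 ± 0.687 CPM with Coptidis and 128 ± 2.88 CPM with vehicle (-2.51). With wortmannin 8 of the 9 were higher and 0 lower. The summed level of 9 hepatocyte markers also differed from vehicle in these groups, without overlap. It was 23967 to 25001 CPM with Coptidis at 210 ug/mL, 28292 to 29101 CPM with Scutellariae, 35961 to 37032 CPM with fresh ginger and 34285 to 38954 CPM with dried ginger at 500 ug/mL, 47636 to 48733 CPM with wortmannin, and 41764 to 42417 CPM with vehicle. Of these markers, 8 were lower with Coptidis, 9 with Scutellariae and 6 with each ginger. Their part in the changes of HP, SAA4, ORM1 and ORM2 was not tested. Of these 9 markers, ALB, APOA1 and TTR also stand in the list of negative, and FGB and SERPINA1 in that of positive, acute phase proteins.

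Of 10 STAT3 targets outside the secreted proteins, 8 were higher and 1 lower with Coptidis (median 0.87), against 34.8% higher and 34.5% lower over all genes. With Scutellariae 7 were higher and 2 lower, with fresh ginger 6 and 0, and with dried ginger 7 and 1, against 24.7%, 23.5% and 21.5% higher over all genes. JUNB, an AP-1 subunit, averaged 78.7 ± 5.09 CPM with Coptidis and 5.56 ± 1.07 CPM with vehicle (3.82, adjusted p = 7.47e-35). PIM1, a kinase, averaged 178 ± 2.47 CPM with Coptidis and 34.4 ± 0.698 CPM with vehicle (2.37), and MCL1, which blocks apoptosis, 865 ± 39.4 CPM with Coptidis and 203 ± 5.53 CPM with vehicle (2.09). With wortmannin 1 was higher and 4 lower. These genes respond to many signals besides STAT3.

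Receptors and relays held genes of both directions, as did all genes with Coptidis (34.8% higher and 34.5% lower). Of 18 genes of interleukin-6 type signalling, 8 rose and 8 fell with Coptidis, an even split like that of all genes. JAK2 averaged 19.01 ± 0.0669 CPM with Coptidis and 7.97 ± 0.525 CPM with vehicle (1.25), whereas IL22RA1 fell by 1.61 and IL11RA by 1.36 on the log2 scale. Of 15 genes of the interleukin-1 and NF-kappaB relay, 8 rose and 7 fell with Coptidis. IL1RAP, the shared receptor chain, averaged 10.99 ± 1.25 CPM with Coptidis and 29.3 ± 0.0330 CPM with vehicle (-1.41), and NFKB2 was higher by 1.22. In the lipopolysaccharide list of 6 tested genes, 4 rose and 2 fell. LY96, the partner of TLR4, averaged 4.33 ± 0.190 CPM with Coptidis and 0.313 ± 0.113 CPM with vehicle (3.78). The levels of 5 macrophage markers, among them CD14 of the same list, were summed. The sum was 74.2 to 87.4 CPM with Coptidis and 28.99 to 33.4 CPM with vehicle. It was nearly all CD68, since CD14 did not exceed 3.498 CPM in any library and PTPRC, CD163 and MARCO had medians of 0. Of the 2 macrophage markers tested, CD68 was called higher and CD14 lower with Coptidis.

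Of 11 transcription factors of acute phase promoters, 5 were higher and 5 lower with Coptidis, against 34.8% and 34.5% of all genes. CEBPB, the C/EBP factor induced in the acute phase, averaged 111 ± 6.23 CPM with Coptidis and 20.8 ± 1.71 CPM with vehicle (2.42, adjusted p = 7.39e-18). CEBPA, the C/EBP factor of resting liver, averaged 31.3 ± 2.95 CPM with Coptidis and 123 ± 0.335 CPM with vehicle (-1.98, adjusted p = 6.24e-23). ONECUT1 fell by 2.08 on the log2 scale. Of 8 genes of haem handling, 5 rose and 2 fell with Coptidis. HPX, which encodes the haem scavenger haemopexin, averaged 4.05 ± 1.14 CPM with Coptidis and 13.2 ± 1.40 CPM with vehicle (-1.69), and FTH1, the ferritin heavy chain, was higher by 1.21.

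**Figure D4:**
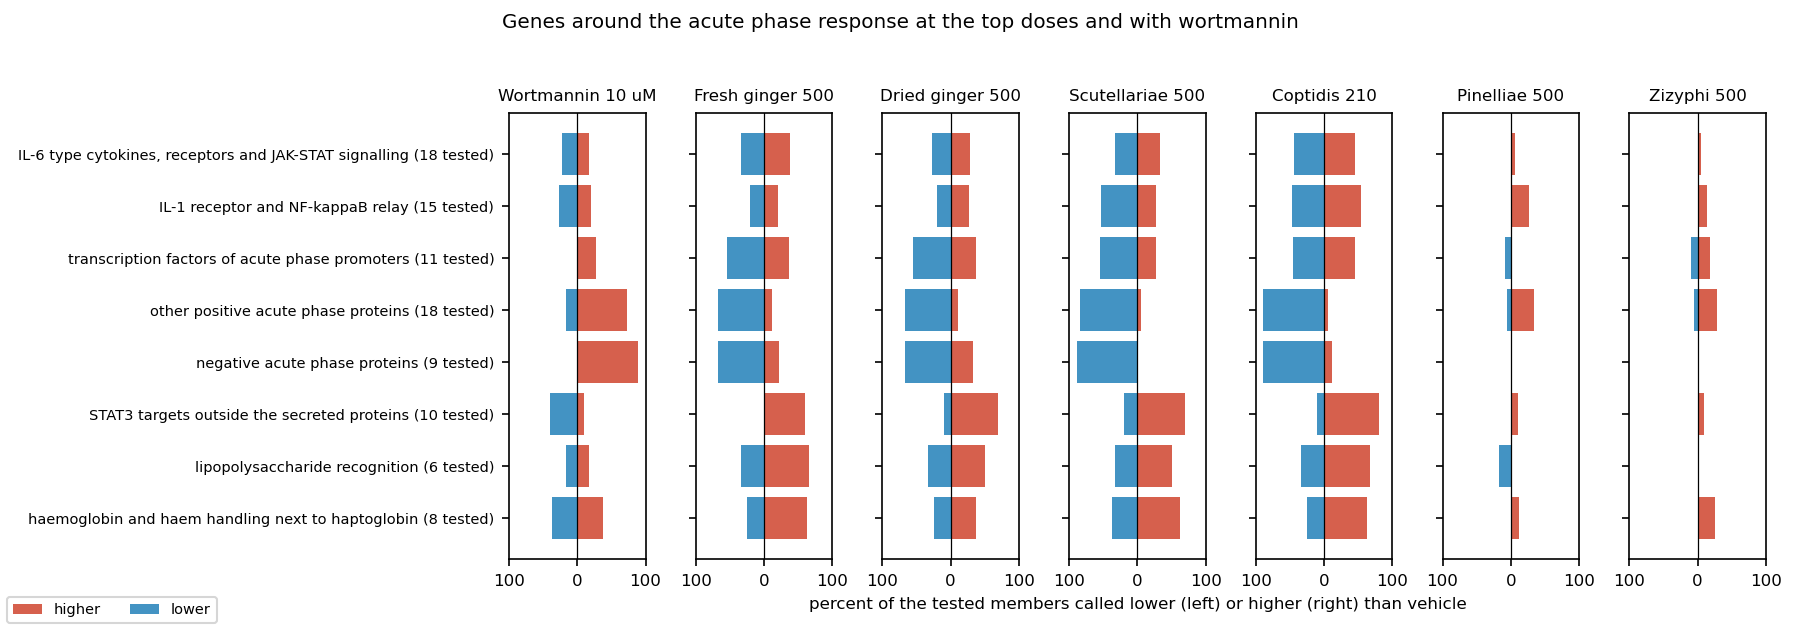
Percent of the tested genes of each list called lower (left, blue) or higher (right, red) than vehicle, with wortmannin and at the top dose of each extract; the number tested is beside each list. The positive and the negative acute phase proteins lie to the left with Coptidis and Scutellariae (16 of 18 and 8 of 9 lower with Coptidis) and to the right with wortmannin (13 of 18 and 8 of 9 higher), while STAT3 targets lie to the right with 4 extracts.

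In the order of levels over the 20 groups, HP was lowest with Coptidis at 210 and 42 ug/mL, then fresh ginger, dried ginger and Scutellariae at 500 ug/mL. IL6R had the same 5 groups at its upper end, led by Coptidis at 210 ug/mL, Scutellariae at 500 ug/mL and Coptidis at 42 ug/mL. Of the 19 pairs of neighbours in the order, the libraries overlapped in 10 for HP, 11 for IL6R, 17 for SOCS3, 15 for SAA4, 17 for ORM1 and 19 for ORM2, so for each of the 6 genes most neighbours were not set apart by their spread. The genes whose mean log2 levels over the 20 groups followed HP most closely were GSTA2 (r = 0.990), CFI (r = 0.987) and ENSG00000275437 (r = 0.985). For IL6R they were EHBP1 (0.985), SERPINE2 (0.984) and ACVR1 (0.983), for SOCS3 PLAU (0.966), ZNF280A (0.964) and SH3BGRL3 (0.962), and for SAA4 FMO5 (0.908), FOXN3 (0.905) and SLC22A9 (0.900). These correlations describe 20 group means from the same libraries, in which the strongest groups weigh most. ORM1 and ORM2 spanned 0.51 and 0.50 on the log2 scale, too little to rank likeness by the rule used.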

How the data were processed

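RNA from 59 HepG2 libraries was sequenced as paired 100-base reads from a directional kit, per the labels' protocols. The authors deposited 1 table of RSEM expected counts per gene; per the submitters' processing notes it was made on GRCh38 with RSEM 1.3.3 and STAR 2.7.3a, besides Trim Galore 0.6.5 and FastQC 0.11.9. The sources used here name neither annotation nor strand setting. Of 267 columns, 59 matched the samples and 208 were not used. Of nonzero values 24.44% were not whole, so counts were rounded. RSEM splits reads that match several genes by estimate. That bears on ORM1 and ORM2, HP and HPR, SAA1 and SAA2, and SAA4 and its readthrough with SAA2.

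Genes were tested with edgeR 4.0.16 (TMM, filterByExpr, quasi-likelihood test, two-sided) in R 4.3.3 over all 20 group means, with Benjamini-Hochberg adjustment over the 16641 genes of each comparison and a threshold of 0.05. There were 39 residual degrees of freedom, and the biological coefficient of variation was 4.41%. CPM was computed here with TMM library sizes; log2 changes are those of the model, group over its comparator. Besides 28 comparisons of the design (19 with vehicle, 6 of top with bottom dose, 3 of the gingers), 12 between adjacent doses were added after the data were seen. The script was tested on simulated counts. Symbols matched 56558 identifiers, coordinates are from GENCODE release 29, and upstream sequences are from RefSeq (GRCh38.p14).

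The 10 genes and all lists were chosen with earlier results of these data known. All 10 are named; of each list, the 3 called genes with the largest change at a top dose or with wortmannin are named, and for likeness the 3 highest correlations of group means for genes that span more than 1 on the log2 scale. Alternatives were RLE scaling, DESeq2 1.42.0, no filter on low counts, a fit of only the groups compared, a replicate block, each library left out, 3 libraries left out together, and paralogs summed. Replicates differed by more than sampling noise in all 58 pairs (mean chi-square per gene 1.94 to 32.8), so none was treated as a second reading of 1 library. This measure cannot tell separate cultures from separate preparations of 1 culture.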

Additional observations from a re-analysis of the deposited data

Results flagged for a closer look

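Fresh and dried ginger differed in 3 values, each by the test of the difference between the extracts at the same dose. HP was lower with fresh than with dried ginger by a log2 change of -0.27 at 500 ug/mL and -0.24 at 100 ug/mL, with all 3 fresh libraries below all 3 dried ones at both doses. ORM2 was lower with fresh ginger at 500 ug/mL (-0.16), with overlapping groups. No single sample was flagged here for its distance from the rest of a group, since no group held more than 3. The 3 libraries that stood apart in earlier work, and each library in turn, were left out as alternatives.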

How the results depend on the processing

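No change of a gene reversed its direction past the threshold under any alternative. Of 240 changes of single genes, the replicate block moved no call (240 kept), RLE scaling gained 1, no filter on low counts gained 2, DESeq2 gained 3 where it gave an adjusted p, and summed paralogs gained 3 and lost 3. The fit of only the groups compared gained 5, lost 4 and kept 217 where it gave an adjusted p, and it gave none for the rest of the 240. Leaving out the 3 libraries that stood apart gained 9 and lost 1. Over vehicle, between top and bottom dose and between the gingers, the number of the 6 genes called moved by over 1.5 times in the following cases. For Pinelliae at 500 ug/mL, 2 genes in place of 1 were called without the 3 libraries, both over vehicle and over 20 ug/mL. For Scutellariae at 20 ug/mL over vehicle, 1 gene (SAA4) in place of 0 was called with DESeq2, with the fit of only the groups compared, without a filter and without the 3 libraries. For fresh over dried ginger at 500 ug/mL, 1 in place of 2 was called with the fit of only the groups compared and with summed paralogs. For Zizyphi at 500 over 20 ug/mL, 0 in place of 1 was called with the fit of only the groups compared. With 1 library left out, the number called was 3 to 5 for Coptidis at 42 ug/mL over vehicle, 0 to 1 for Pinelliae at 500 ug/mL over vehicle and over 20 ug/mL, 0 to 1 for Scutellariae at 20 ug/mL and for Zizyphi at 500 ug/mL over vehicle, 0 to 2 for Zizyphi at 20 ug/mL over vehicle, and 1 to 3 for fresh over dried ginger at 500 ug/mL. The 2 genes of Zizyphi at 20 ug/mL were HP (0.12, adjusted p = 0.0441) and IL6R (-0.20, adjusted p = 0.0129), both without replicate 3. Between neighbouring doses, Zizyphi at 500 over 100 ug/mL had 2 in place of 1 without the 3 libraries and with the fit of only the groups compared (SAA4, adjusted p = 0.0307 and 0.0212), and 0 with 1 of 4 libraries left out. Pinelliae at 500 over 100 ug/mL had 0 in place of 1 with the fit of only the groups compared (SAA4, adjusted p = 0.328) and with 1 of 4 libraries left out. Zizyphi at 100 over 20 ug/mL had 2 in place of 0 without replicate 3 at 20 ug/mL (HP and IL6R, adjusted p = 0.0315 and 0.00932). Every other count that moved did so by 1 gene, within 1.5 times. The cause was not tested. Equal replicate numbers did not pair libraries: in 0 of 40 comparisons was every correlation of deviations over 0.1 (-0.0622 to 0.115, median 0.0103), and the block left each count of calls as it was. Depth limits SOCS3, with 4 to 110 counts per library, and the 4 genes at or near 0.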

Other observations

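Among genes of lipopolysaccharide recognition, TLR4, the receptor for lipopolysaccharide, averaged 2.09 ± 0.0705 CPM with fresh ginger at 500 ug/mL and 0.504 ± 0.198 CPM with vehicle (SD, n = 3 each; log2 2.04, adjusted p = 2.39e-10 by edgeR). TICAM1, its adaptor, averaged 20.8 ± 1.65 CPM with Coptidis at 210 ug/mL and 5.22 ± 0.558 CPM with vehicle (1.99, adjusted p = 2.54e-25). TTR, which carries thyroid hormone and retinol-binding protein, averaged 21.9 ± 1.42 CPM with Coptidis at 210 ug/mL and 53.9 ± 2.82 CPM with vehicle (-1.30, adjusted p = 2.15e-21). TF, which encodes transferrin, averaged 1283 ± 26.3 CPM with Scutellariae at 500 ug/mL and 2293 ± 91.2 CPM with vehicle (-0.84, adjusted p = 5.03e-24). NFKBIZ, an inducible inhibitor-like partner of NF-kappaB, averaged 6.49 ± 0.741 CPM with Coptidis at 210 ug/mL and 11.5 ± 0.292 CPM with vehicle (-0.82, adjusted p = 1.71e-11).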
